A study of Mus musculus with 9 samples.

Results

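Voltage-gated calcium channels carry auxiliary subunits of the alpha2delta and beta families, and the genes that encode them are Cacna2d1, Cacna2d2 and Cacna2d3 for alpha2delta and Cacnb1, Cacnb2, Cacnb3 and Cacnb4 for beta. These 7 genes were chosen by symbol, all 7 were among the 31052 genes measured, and all 7 passed the filter on low values that left 15232 genes for testing. They were measured in nuclear RNA of pyramidal cells, the main excitatory cell type of the mouse hippocampus, and every library carries the genotype WT. The 5 place libraries came from cells with spatially tuned activity during navigation and the 4 silent libraries from cells classed as silent. Cells were classed by in vivo 2-photon imaging, and their nuclei were tagged with light before collection. The sources used here do not give the animals' age, sex or strain, the promoter behind the tag, or the number of nuclei pooled per library. Each title holds a mouse label with a number of its own, without a statement that these are 9 separate animals. Since some libraries hold Y-linked transcripts and others nearly none, they did not all come from 1 animal. The p-values measure the spread between these libraries, of which an unknown portion may be technical.

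Each calcium channel is built around a pore-forming alpha1 subunit. The alpha2delta subunit lies on the outer face of the membrane, brings channels to the cell surface and to the presynaptic terminal, and in the case of Cacna2d1 and Cacna2d2 is the target of the gabapentinoid drugs. The beta subunit sits in the cytoplasm on the linker between the first repeats of alpha1, promotes delivery of the channel to the membrane and sets how it opens and inactivates. In hippocampal pyramidal neurons both families shape transmitter release and dendritic calcium entry.

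Levels are given in RPM, that is reads recovered from the deposited values per 1000000 of the library's scaled depth, as mean ± SD over libraries. Effective depth ran from 13.8 to 22.7 in units of 1000000 reads. The summed level of 6 excitatory neuron markers was 3237 to 4169 RPM in place and 3376 to 4537 RPM in silent libraries, and all 6 had reads in every library. Markers of other cells were present too: 10 oligodendrocyte markers summed to between 190.2 and 3249 RPM in place and 118 to 549 RPM in silent libraries, and 9 interneuron markers to between 277 and 365 RPM in place and 297 to 538 RPM in silent libraries. Of the interneuron markers 2 of 9 had reads in every library. They were Cck, which alone averaged 235 RPM, and Gad1, a gene of GABA synthesis, at 0.363 to 184 RPM. Much of the interneuron sum thus rests on 1 gene, Cck. Slc32a1, the vesicular GABA transporter gene, had reads in 3 libraries, up to 12.7 RPM. Place replicate 3 had the highest sums of astrocyte markers (2401 RPM, against 171.6 to 476 in the other 8 libraries) and of dentate granule cell markers (501 RPM, against 86.7 to 230.4). It also had the highest sum of oligodendrocyte markers (3249 RPM) and the lowest of excitatory neuron markers (3237 RPM). Y-linked transcripts, 4 genes summed, stood at 730.5 to 1317 RPM in the 4 silent libraries and at 1022 RPM in place replicate 1, and at no more than 0.266 RPM in place replicates 2 to 5. Their presence, a sign of the animals' sex, thus followed the groups in all libraries but place replicate 1. A difference by sex and one between the groups cannot be told apart here. The covariate fit given with the other alternatives cannot separate them, since only place replicate 1 enters its fold for the place group. In such libraries, fewer cells of a type and less RNA per cell cannot be told apart.

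Per kb of exon, which allows levels of different genes to be compared, Cacna2d1 was the highest member in 7 of 9 libraries and Cacna2d2 the lowest in 9 of 9. The means over 9 libraries were 42.4 ± 7.68 RPM per kb for Cacna2d1, 32.2 ± 10.7 for Cacna2d3, 22.7 ± 3.43 for Cacnb2, 21.4 ± 8.40 for Cacnb3, 17.8 ± 6.44 for Cacnb4, 10.4 ± 4.56 for Cacnb1 and 2.99 ± 2.35 for Cacna2d2. Neighbours in the middle of this order were not separated. Cacnb2 was above Cacnb3 in 4 of 9 libraries and Cacnb3 above Cacnb4 in 5 of 9, and the log2 differences per kb, 0.20 and 0.23, were smaller than their SDs over libraries, 0.77 and 1.07. Cacna2d1 was above Cacna2d3 in 7 of 9 libraries, and that log2 difference, 0.45, was also smaller than its SD of 0.63. Cacna2d3 was above Cacnb2 in 8 of 9 libraries (log2 difference 0.44, SD 0.35). Cacnb4 was above Cacnb1 in 7 of 9 libraries (0.88, SD 1.09), and Cacnb1 was above Cacna2d2 in all 9 (2.03 over the 8 libraries with reads of both, SD 1.45). Gene length came from the union of exons in GENCODE M21, of the GRCm38 build, while the submitters' notes name GRCm39. With the longest transcript as length, Cacna2d3 (76.0 RPM per kb) came before Cacna2d1 (70.8), and with the longest coding length Cacna2d3 (85.8) fell behind Cacnb2 (153) and Cacnb4 (103).

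**Figure D1:**
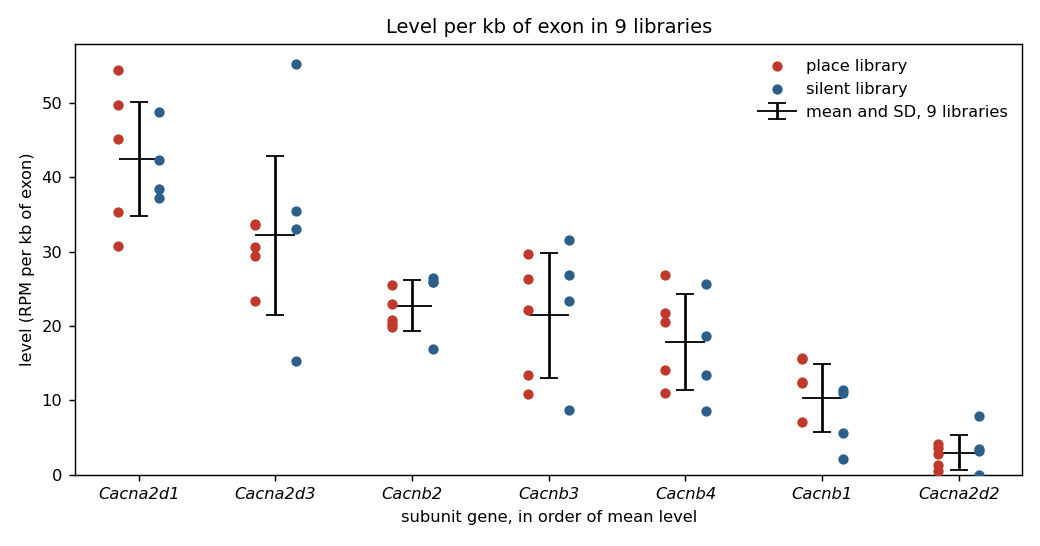
Level per kb of exon (y axis, RPM per kb) of the 7 subunit genes (x axis, in order of mean level); each point is 1 library, red for place and blue for silent, and black bars give the mean and SD over 9 libraries. Cacna2d1 and Cacna2d3 lead, at 42.4 and 32.2 RPM per kb, and Cacna2d2 is last at 2.99.

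Among the alpha2delta genes, Cacna2d1, whose product binds thrombospondins at forming synapses and is bound by gabapentin, was the most abundant member on the RPM scale as well. It stood at 617, 439, 559.9, 675 and 381 RPM in place replicates 1 to 5 and at 462, 477, 525 and 605 RPM in silent replicates 1 to 4. Place replicates 4 and 5 were the highest and the lowest of all, so the silent libraries lay inside the range of the place libraries.

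Cacna2d3, an alpha2delta gene needed in the mouse for normal processing of pain and sound, stood at 267, 204, 293, 256 and 293 RPM in place replicates 1 to 5. In silent replicates 1 to 4 it stood at 288, 481, 309 and 134 RPM. The place libraries were close together and the silent libraries held both the highest and the lowest value.

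Cacna2d2, which is mutated in the ataxic ducky mouse and is prominent in cerebellar Purkinje cells, was near the middle of all tested genes, with 49.1% of them at a lower mean. It stood at 3.95, 10.8, 32.6, 22.1 and 28.5 RPM in place replicates 1 to 5 and at 63.1, 27.3, 25.3 and 0 RPM in silent replicates 1 to 4. The value in place replicate 1 rested on 59 reads, and the 0 in silent replicate 4 allows up to 3 reads, or 0.132 RPM, a limit that covers counting error only. The 3 other silent libraries were all above 3 of the 5 place libraries, and the groups overlapped.

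**Figure D2:**
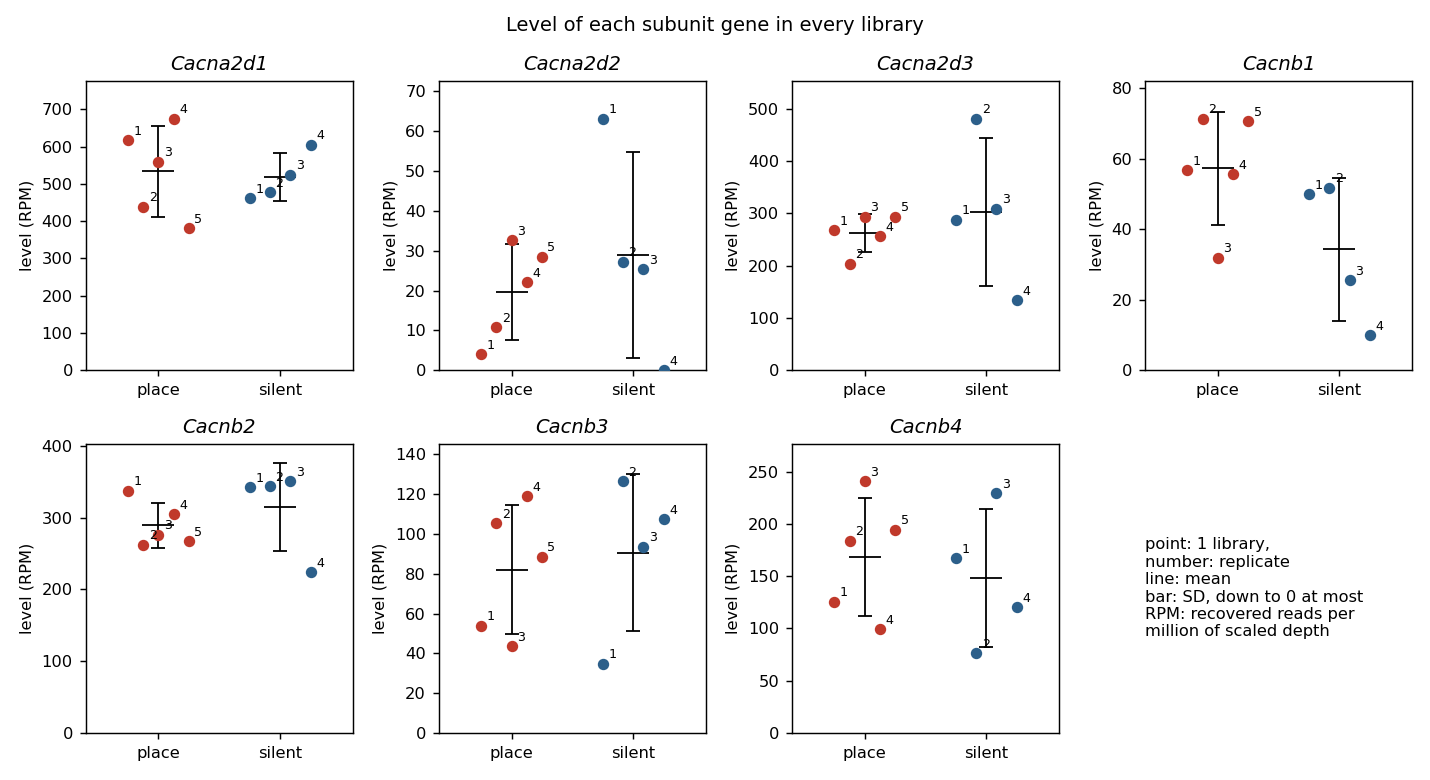
Level in RPM (y axis, from 0) of each subunit gene in place (red) and silent (blue) libraries (x axis); points are libraries with their replicate number, lines are means and bars SDs. The groups overlap in all 7 panels, and silent replicate 4 is the lowest library for Cacna2d2, Cacna2d3, Cacnb1 and Cacnb2.

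Of the beta genes, Cacnb2, best known from the heart, where its product is the main beta subunit, had the highest mean level. Per kb of exon it was not separated from Cacnb3, which it exceeded in 4 of 9 libraries. Cacnb2 stood at 337, 262, 276, 304 and 267 RPM in place replicates 1 to 5 and at 342, 343, 350.2 and 224 RPM in silent replicates 1 to 4. Of the silent libraries, 3 lay within 8.1 RPM of each other and above every place library, while silent replicate 4 was below every place library.

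Cacnb4, mutated in the lethargic mouse, which has seizures and ataxia, stood at 126, 184, 241, 99.1 and 194 RPM in place replicates 1 to 5 and at 167, 76.3, 229.7 and 120.1 RPM in silent replicates 1 to 4. High and low libraries occurred in both groups, and the highest was place replicate 3, which also had the highest oligodendrocyte, astrocyte and dentate granule marker sums. Their part in this value was not tested. Exons of A430018G15Rik lie on the opposite strand over 16.0% of the Cacnb4 exon length, and the strand setting of the counting is not given in the sources used here, so reads of the pair may be mixed. A430018G15Rik itself averaged 1.91 RPM.

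Cacnb3, a widespread neuronal beta subunit gene often paired with N-type channels, stood at 53.8, 105, 43.6, 119 and 88.6 RPM in place replicates 1 to 5. In silent replicates 1 to 4 it stood at 34.8, 126, 93.7 and 107 RPM. The libraries fell into a low and a high set that cut across the groups, with place replicates 1 and 3 and silent replicate 1 under 54 RPM and the remaining 6 libraries at 88.6 RPM or more.

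Cacnb1, which encodes the beta subunit of the skeletal muscle channel and is also made in brain, stood at 56.7, 71.3, 31.9, 55.6 and 70.6 RPM in place replicates 1 to 5 and at 49.9, 51.7, 25.5 and 9.91 RPM in silent replicates 1 to 4. The 4 highest libraries were place libraries, and place replicate 3 lay among the silent ones, below silent replicates 1 and 2. That replicate also had the highest oligodendrocyte, astrocyte and dentate granule marker sums, whose part in its Cacnb1 value was not tested. The lowest value, in silent replicate 4, rested on 225 reads.

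The members differ in gene structure as well as in level. Cacna2d3 spans 817 kb, Cacna2d1 439.8 kb, Cacnb2 385 kb and Cacnb4 248.5 kb, against 129.7 kb for Cacna2d2, 21.5 kb for Cacnb1 and 13.7 kb for Cacnb3 (GENCODE M21). Exons made up 1.07% of the span of Cacna2d3 and 29.3% of that of Cacnb3. The 4 genes with the longest spans had the 4 highest mean levels in RPM, from 159.7 for Cacnb4 to 527 for Cacna2d1, while per kb of exon Cacnb3 came before Cacnb4. These 4 genes also had the longest unions of exons, from 8.72 kb for Cacna2d3 to 13.2 kb for Cacnb2. The union was 7.95 kb in Cacna2d2 and shorter in Cacnb1 and Cacnb3. Levels in RPM are not corrected for that length.

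The sequences before the start sites are shown for the pair of alpha2delta genes that held most of that family's reads, and for Cacnb2, the beta gene with the highest mean level, which has 2 start sites in the table. They are the 250 bases upstream of the annotated start, from RefSeq on build GRCm38.p6, 5′ to 3′ on the gene's strand, and capitals mark the GC box GGGCGG or its reverse complement CCGCCC, the letters bound by Sp1-type factors.
Cacna2d1, chr5:15934441-15934690, plus strand: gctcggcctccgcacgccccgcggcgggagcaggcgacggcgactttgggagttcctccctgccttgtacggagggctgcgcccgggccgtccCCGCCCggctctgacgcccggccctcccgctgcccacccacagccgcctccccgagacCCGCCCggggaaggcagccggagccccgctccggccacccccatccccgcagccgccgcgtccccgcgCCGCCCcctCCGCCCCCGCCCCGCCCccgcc
Cacna2d3, chr14:29721865-29722114, minus strand: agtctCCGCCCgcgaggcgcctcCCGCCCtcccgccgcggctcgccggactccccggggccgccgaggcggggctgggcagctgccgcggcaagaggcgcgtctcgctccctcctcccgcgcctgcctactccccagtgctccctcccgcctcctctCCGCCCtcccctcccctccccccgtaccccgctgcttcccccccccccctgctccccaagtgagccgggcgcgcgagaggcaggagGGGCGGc
Cacnb2, first start, chr2:14604056-14604305, plus strand: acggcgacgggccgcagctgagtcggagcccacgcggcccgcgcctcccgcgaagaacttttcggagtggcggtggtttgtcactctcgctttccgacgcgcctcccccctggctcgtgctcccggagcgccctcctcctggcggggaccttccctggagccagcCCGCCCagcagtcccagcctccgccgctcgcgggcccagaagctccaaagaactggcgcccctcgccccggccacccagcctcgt
Cacnb2, second start, chr2:14823842-14824091, plus strand: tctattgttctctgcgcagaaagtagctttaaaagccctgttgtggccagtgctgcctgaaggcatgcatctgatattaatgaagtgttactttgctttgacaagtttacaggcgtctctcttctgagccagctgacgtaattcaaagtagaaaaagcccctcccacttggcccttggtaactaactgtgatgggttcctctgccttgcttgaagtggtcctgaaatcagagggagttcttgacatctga

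Both alpha2delta windows are rich in G and C, with 82.4% in Cacna2d1 and 80.0% in Cacna2d3 against a median of 52.4% over 32851 windows of the same length in the table. They hold 36 and 30 CpG dinucleotides and 6 and 4 GC boxes, counted on both strands with overlaps allowed. The first Cacnb2 window holds 30 CpG and 1 GC box, and the second 3 CpG and 0. A GC box was present in 32.7% of all windows. Neither the cAMP response element TGACGTCA (1.55% of all windows) nor the TATA sequence TATAAA (12.4%), searched on both strands, occurred in any of the 12 windows listed for the 7 members, which says only that these letters are not in these windows. Reads are summed per gene, so use of the first or second Cacnb2 start was not measured.

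As families, the summed level per kb of exon was 77.6 ± 11.7 RPM per kb for alpha2delta and 72.3 ± 8.63 for beta over the 9 libraries, beside 121 ± 12.2 for the 9 alpha1 genes in the table. The alpha2delta sum was 75.6 ± 11.2 RPM per kb in place (n = 5) and 80.0 ± 13.5 in silent libraries (n = 4), and the beta sum 73.8 ± 7.87 and 70.5 ± 10.4. These differences are smaller than the SDs. Within alpha2delta, Cacna2d1 made up 56.5 ± 7.10% of the summed level in place and 53.9 ± 15.7% in silent libraries. Cacna2d3 made up 40.2 ± 5.76% and 41.7 ± 13.5%, and Cacna2d2 3.26 ± 1.93% and 4.41 ± 4.22%. The balance of the leading pair ranged widely in silent libraries. Cacna2d1 over Cacna2d3 per kb was 0.697 in silent replicate 2 and 3.18 in silent replicate 4, against 0.913 to 1.85 in place libraries.

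No single gene led the beta family in every library. Cacnb2 made up 30.1 ± 5.91% of the beta sum in place and 33.7 ± 4.87% in silent libraries, Cacnb3 27.2 ± 8.95% and 32.1 ± 14.2%, and Cacnb4 25.8 ± 9.72% and 23.6 ± 9.20%. Cacnb1 made up 16.9 ± 3.73% in place and 10.6 ± 6.35% in silent libraries. Its share was lowest in silent replicate 4, at 3.69%, and highest in place replicate 5, at 19.6%. Cacnb3 over Cacnb4 per kb ran from 0.405 in place replicate 3 to 3.70 in silent replicate 2.

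**Figure D3:**
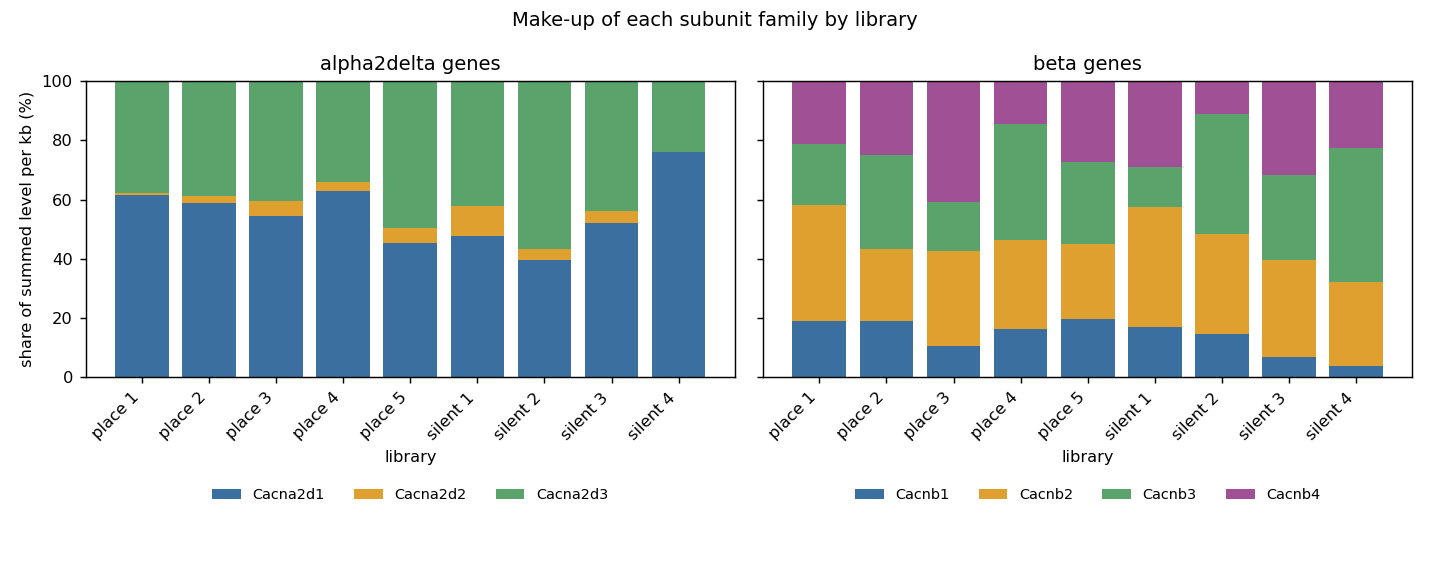
Share of the summed level per kb of exon (y axis, %) taken by each alpha2delta gene (left) and each beta gene (right) in the 9 libraries (x axis). Cacna2d1 takes 76.1% of alpha2delta in silent replicate 4 and 39.6% in silent replicate 2, and the largest share of beta passes between Cacnb2, Cacnb3 and Cacnb4 from library to library.

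The comparison of place with silent libraries asks whether cells with spatial tuning differ in these transcripts from cells that stayed silent. No member differed beyond the spread between libraries. With limma, 0 of 7 members had an adjusted p under 0.05 or an unadjusted p under 0.05, and 0 of 7 had groups that did not overlap. Over all 15232 tested genes 0 (0%) passed at an adjusted p under 0.05, 769 (5.05%) had an unadjusted p under 0.05, 3.77% higher and 1.27% lower in place, and 291 (1.91%) had groups that did not overlap, 1.31% higher and 0.597% lower in place. Voom on the recovered reads called 0 members at either threshold, against 4 of all genes at an adjusted p under 0.05 and 946 (6.21%) at an unadjusted p under 0.05. At such shares a count of 0 among 7 members is near the background. Log2 folds, of value + 1 as place minus silent, were positive in 4 members and negative in 3, with a median of 0.02 beside 0.20 over all tested genes, of which 59.1% had a positive fold.

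The intervals were narrowest for Cacna2d1 and Cacnb2. In place libraries (n = 5) Cacna2d1 averaged 534 ± 122 RPM and in silent ones (n = 4) 517 ± 64.5, a log2 fold of 0.02 ± 0.20 SE (limma adjusted p = 0.992). Its 95% interval ran from a 0.752-fold to a 1.37-fold level in place. Cacnb2 averaged 289 ± 31.3 and 315 ± 60.9 RPM (log2 fold -0.10 ± 0.21 SE, limma adjusted p = 0.944), with an interval from 0.681-fold to 1.27-fold. Larger changes than these are outside the intervals, and smaller ones could not be seen at this spread.

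The remaining intervals were wider. Cacna2d3 averaged 263 ± 36.7 RPM in place libraries against 303 ± 142 in silent ones (log2 fold -0.08 ± 0.33 SE, limma adjusted p = 0.979, interval 0.579-fold to 1.55-fold). Cacnb4 averaged 169 ± 56.5 and 148 ± 65.8 RPM (log2 fold 0.23 ± 0.37 SE, limma adjusted p = 0.924, interval 0.672-fold to 2.05-fold). Cacnb3 averaged 82.1 ± 32.5 and 90.6 ± 39.5 RPM (log2 fold -0.09 ± 0.47 SE, limma adjusted p = 0.985, interval 0.460-fold to 1.91-fold).

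Cacnb1 had the smallest p of the members. In place libraries it averaged 57.2 ± 16.0 RPM and in silent ones 34.2 ± 20.2, a ratio of means of 1.67, with a log2 fold of 0.95 ± 0.60 SE (limma adjusted p = 0.861, interval 0.780-fold to 4.81-fold). Without silent replicate 4 the log2 fold was 0.45 ± 0.51 SE (limma adjusted p = 0.899) and the ratio of means 1.35.

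For Cacna2d2 the log and linear scales pointed in opposite directions. The mean was lower in place, 19.6 ± 12.0 RPM against 28.9 ± 26.0, while the log2 fold was 1.55 ± 2.09 SE (limma adjusted p = 0.902). That fold rests on the library without reads, since it was 1.80 with a pseudocount of 0.5 and 0.73 with a pseudocount of 10. Without silent replicate 4 it was -1.19 ± 0.86 SE (limma adjusted p = 0.843) and the ratio of means was 0.508.

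**Figure D4:**
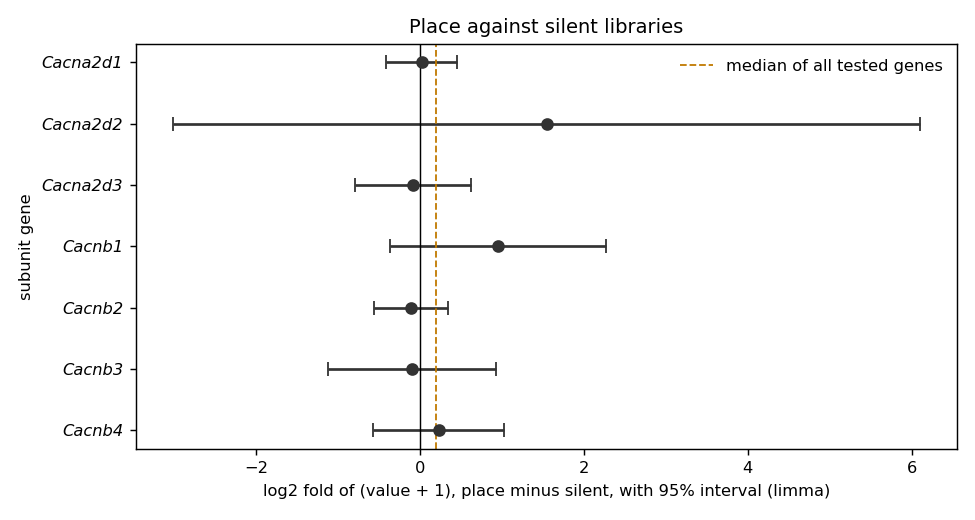
Log2 fold of value + 1, place minus silent (x axis), for each subunit gene (y axis), with the limma estimate as a point and its 95% interval as a bar; the dashed line is the median of all tested genes, 0.20. All 7 intervals include 0, and the widest is that of Cacna2d2.

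Silent replicate 4 was the lowest of the 9 libraries for Cacna2d2, Cacna2d3, Cacnb1 and Cacnb2, and was not the lowest for Cacna2d1 (605 RPM), Cacnb3 (107 RPM) or Cacnb4 (120.1 RPM). Over the 8834 tested genes with reads in all libraries, to which Cacna2d2 does not belong, it was the lowest for 15.5%, within the range of the other libraries, from 3.61% in place replicate 4 to 19.3% in silent replicate 1. This library had the greatest effective depth, 22.7 in units of 1000000 reads, with 15515 genes detected against a range of 14176 to 20990 over all libraries. It also had the highest sum of 7 microglia markers, 248 RPM, against 5.58 to 201 RPM in place libraries. Its summed oligodendrocyte markers were the lowest (118 RPM) and its summed interneuron markers the highest (538 RPM). Only 3 of the 9 interneuron markers had reads in this library: Gad1 at 50.5 RPM, Gad2 at 19.9 RPM and Cck, which made up the rest. Gad1 and Gad2 were higher in other libraries, up to 184 and 98.2 RPM. The part of these markers in the result was not tested. Without this library the 3 remaining silent values of Cacnb2 averaged 345 ± 4.34 RPM and lay above all 5 place values, with a log2 fold of -0.26 ± 0.20 SE (limma adjusted p = 0.852). This library was singled out after its low values were seen, so the separation is a description. Of all tested genes 3.97% had groups that did not overlap without it, 1.48% being lower in place. Cacna2d3 then averaged 359 ± 106 RPM in silent libraries, with a log2 fold of -0.42 ± 0.25 SE (limma adjusted p = 0.840).

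Apart from the groups, the members differed in how far their level varied between libraries. The SD over the 9 libraries was 15.1% of the mean for Cacnb2 and 18.1% for Cacna2d1. Among the 2462 tested genes with reads in all libraries and a mean of at least 100 RPM, where the median was 31.1%, a lower value was found in 2.60% of genes for Cacnb2 and in 7.07% for Cacna2d1. Cacna2d3 (33.2%) and Cacnb4 (36.2%) lay near that median. Cacnb3 (39.2%) and Cacnb1 (43.9%) had lower levels, and Cacna2d2, the lowest, had 78.7%. Spread falls as level rises across all genes, so values of genes at unlike levels are not directly comparable. The same limits the shares given for Cacnb2 and Cacna2d1, since that set starts at 100 RPM, below the level of both.

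**Figure D5:**
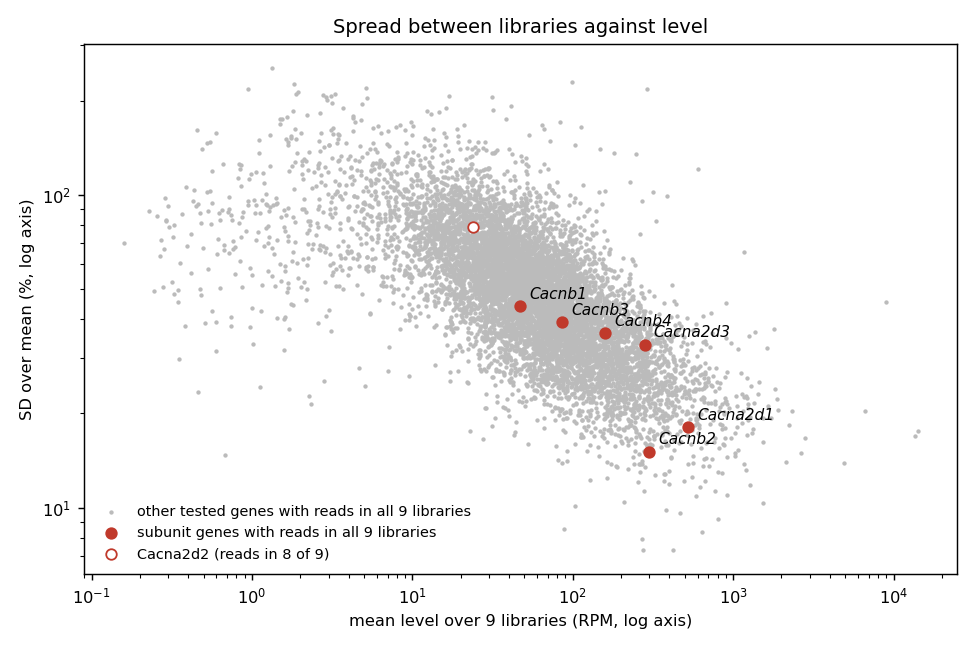
SD between libraries as a percentage of the mean (y axis, log scale) against mean level in RPM (x axis, log scale) for tested genes with reads in all 9 libraries (grey), the 6 subunit genes among them (red) and Cacna2d2, with reads in 8 of 9 (open circle). Cacnb2 at 15.1% and Cacna2d1 at 18.1% lie in the lower part of the cloud. Some genes of a level like that of Cacna2d1 lie below it, such as Aak1 (543 RPM, 15.9%) and Ank3 (554.9 RPM, 12.5%).

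Across libraries the members did not rise and fall as 1 set. Of 21 pairs, 12 had a negative Pearson correlation of log2(RPM + 1) over the 9 libraries, which share their scaling, and 5 had a correlation of at least 0.5. The highest was between Cacna2d3 and Cacnb2 (0.769), followed by Cacna2d2 and Cacna2d3 (0.757). Without silent replicate 4 these were 0.532 and 0.366, and only the Cacna2d3 and Cacnb2 pair was still at 0.5 or more. The lowest was between Cacnb3 and Cacnb4 (-0.472, and -0.443 without silent replicate 4).

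By the same measure, the genes with the pattern most like each member over the 9 libraries were sought among 7535 genes with reads in all libraries and a mean of at least 10 RPM. They were Pvr (0.902) and Skp1 (0.898) for Cacna2d1, Tbc1d17 (0.969) and Nob1 (0.956) for Cacna2d2, and Hnrnph1 (0.957) and Rock1 (0.914) for Cacna2d3. For the beta genes they were Fbxl2 (0.986) and Cdkl3 (0.959) for Cacnb1, Polr2b (0.944) and Ino80dos (0.915) for Cacnb2, Scn3b (0.976) and Jagn1 (0.953) for Cacnb3, and Negr1 (0.885) and Sap130 (0.878) for Cacnb4. Scn3b, the auxiliary beta subunit gene of a sodium channel, is the channel gene among these 14. With 9 libraries and 7535 genes searched, high correlations of this kind are a description of these libraries.

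Genes that work with these subunits were counted in 4 lists, and none of their tested members passed at an adjusted p under 0.05 in either direction. An unadjusted p under 0.05 was found in 2 of 8 alpha1 genes, 1 of 9 regulators, 0 of 8 alpha2delta partners and 1 of 7 other auxiliary genes, beside 5.05% of all tested genes. Of 10 alpha1 pore genes 8 were tested, with 5 positive and 3 negative log2 folds and a median of 0.18 beside 0.20 over all tested genes. Cacna1c, the cardiac and neuronal L-type pore, averaged 78.1 ± 31.1 RPM in place against 33.1 ± 16.6 in silent libraries, with an unadjusted p under 0.05 (limma adjusted p = 0.861). Cacna1h, a T-type pore, averaged 76.0 ± 26.4 and 24.1 ± 21.7 RPM, with groups that did not overlap and an unadjusted p under 0.05 (limma adjusted p = 0.861). Its lowest place value, 48.0 RPM, was close to its highest silent value, 46.7 RPM. Its lowest silent value, 0.073 RPM, was under the limit of 3 reads. Groups did not overlap in 1.91% of all tested genes. Cacna1i, a T-type pore too, averaged 40.0 ± 19.6 and 26.5 ± 27.1 RPM, and Cacna1b, the N-type pore, 240.3 ± 80.7 and 298 ± 60.2 RPM, and neither had an unadjusted p under 0.05.

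The list of 12 channel regulators holds, among others, genes whose products bind beta subunits or sit at the release site with them. Of the 12 regulators 9 were tested, with 6 positive and 3 negative log2 folds (median 0.42). Rims2, an active zone scaffold gene, averaged 139 ± 24.5 RPM in place and 83.9 ± 15.8 in silent libraries without overlap and with an unadjusted p under 0.05 (limma adjusted p = 0.861). Rimbp2, which links scaffold and channel, averaged 241 ± 54.3 and 182 ± 88.9 RPM, and Tspoap1, its relative, 821 ± 241 and 761 ± 161 RPM. The large scaffold gene Ahnak averaged 36.8 ± 77.2 and 1.84 ± 3.65 RPM, and place replicate 3 alone stood at 174.8 RPM. That library had the highest oligodendrocyte, astrocyte and dentate granule marker sums, and the cause of its Ahnak value was not tested.

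Of 10 partners of alpha2delta 8 were tested, with 4 positive and 4 negative log2 folds (median -0.0045). The NMDA receptor subunit gene Grin2a averaged 802 ± 166 RPM in place and 1003 ± 35.0 in silent libraries, the endocytic receptor gene Lrp1 243 ± 75.1 and 157 ± 44.8, and the active zone gene Bsn 138 ± 35.9 and 91.6 ± 74.8. Of 9 other auxiliary genes 7 were tested, with 4 positive and 3 negative log2 folds (median 0.06). Cacng2, or stargazin, which mainly serves AMPA receptors, averaged 94.6 ± 35.3 RPM in place and 29.9 ± 19.7 in silent libraries without overlap and with an unadjusted p under 0.05 (limma adjusted p = 0.827). Its lowest place value, 53.8 RPM, was close to its highest silent value, 52.9 RPM. Cacng3, Cacng4 and Cacng6 had overlapping groups, at 68.4 ± 33.2 and 64.5 ± 32.1 RPM for Cacng3, 3.58 ± 5.97 and 9.28 ± 11.1 for Cacng4, and 4.48 ± 3.94 and 11.9 ± 10.5 for Cacng6. Cacna2d4, the remaining alpha2delta gene, did not pass the filter on low values.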

How the data were processed

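The SMART-Seq mRNA LP kit was used on nuclear RNA, per the labels' protocols. STAR, HTSeq and the GRCm39 build appear in the submitters' processing notes without version or role. The deposited values are a normalized read signal per gene, with libraries in rows. Not given in the sources used here are the normalization tool, the annotation and the strand setting. Within a gene the deposited signal was a whole multiple, within 0.02, of 1 number shared by the libraries, in 15232 of 15232 tested genes (100.0%), with a median of 3.19. The signal thus differs from reads by 1 factor for each gene, with libraries left unscaled, and division by it gave whole reads.

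Library totals of these reads were multiplied by trimmed mean of M-values (TMM) factors (30% trim of M, 5% of A), which gave the common scale for the libraries. Values so scaled entered limma 3.58.1 (R 4.3.3) as log2(value + 1), with an intensity trend and no covariate, for genes that reached a deposited value of 10 in 4 or more libraries, and p-values were Benjamini-Hochberg adjusted over 15232 genes. The added 1 shrinks the folds of low genes, but a library without reads can still set the size and sign of such a fold, as for Cacna2d2. The fit and the recovery were tested on simulated data. Members and lists were chosen with earlier results of these data known. Named are the 7 members, up to 4 genes of smallest p per list (Tspoap1 and Cacna2d4 were named after their values were seen, and 1 gene that the rule names is not reported here), and 2 genes of highest correlation per member, leaving out predicted-model symbols. Gene lengths came from GENCODE M21, and Python 3.11.15 was used. Levels of a library without reads have a limit of 3 reads.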

Additional observations from a re-analysis of the deposited data

Results flagged for a closer look

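The level of Cacnb2 in silent replicate 4, 224 RPM, lay far from the other 3 silent libraries (342 to 350.2 RPM). Its gap to the nearest of them was 0.936 of the range of the group, above the 95% critical value of Dixon's test for 4 samples, 0.829. It was 1 of 14 groups of values examined, and chance flags about 1 in 20 such groups.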

How the results depend on the processing

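No member passed at an adjusted p under 0.05 in any of 21 alternatives, where the smallest adjusted p of a member was 0.697 (limma), and no listed partner gene passed in any of 84 pairs of list and alternative. Over all genes, 4 passed with voom, 225 with presence of Y-linked transcripts as a covariate, a term that follows the groups in all libraries but place replicate 1, and 0 to 1 as single libraries were left out (1 without place replicate 1). Log2 folds changed sign in some fits. With the Y-linked covariate, that is for place replicate 1 alone, they were -0.42 for Cacna2d2, 0.12 for Cacnb2 and -0.12 for Cacnb4. With the oligodendrocyte marker level as a covariate they were 0.54 for Cacnb3 and -0.21 for Cacnb4. With the number of genes detected as a covariate the fold of Cacnb3 moved from -0.09 to -0.96 ± 0.46 SE (limma adjusted p = 0.899). With quantile normalization, which moved the median fold of all genes from 0.20 to 0.01, Cacna2d3 was at 0.0013. The cause was not tested. As single libraries were left out, the fold ran from -0.069 to 0.14 for Cacna2d1, -1.19 to 2.74 for Cacna2d2, -0.42 to 0.19 for Cacna2d3, -0.50 to 0.12 for Cacnb3 and -0.052 to 0.48 for Cacnb4. Cacnb1 kept a positive fold in all 21. In the order per kb, 2 members changed rank with the longest transcript as length and 4 with coding length, and 0 to 2 as single libraries were left out (Cacnb2 and Cacnb3 without place replicate 1 or silent replicate 1). Cacna2d2 was not tested where a value of at least 10 in all 9 libraries was required. No paired analysis was possible because the labels give no replicate numbers that the groups share.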
